A study of Mus musculus with 6 samples.

Results

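The genes described here are 10 targets or partners of p53 in the response to DNA damage, of which 9 had a spot on the array and are reported: Mdm2, Ccng1, Gadd45a, Sesn1, Tigar, Aen, Fas, Tnfrsf10b and Eda2r. No spot analysed here carried the symbol Trp53, so the level of the p53 gene itself was not analysed. The genes were taken by symbol from the 16504 genes that the platform annotation names, and they were selected on knowledge of their p53 link with their log ratios on these same arrays in view. Their values are therefore a description: of the fit over all genes only counts of calls are given for them, from which nothing is read. Single tests are given for 94 other genes of the p53 pathway. Their lists were also chosen with earlier results of these data known. Their p-values and shares of calls are therefore not independent of these data.

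The cells were cultured mouse embryonic fibroblasts, connective-tissue cells grown out of embryos of day 15.5, on the 129/Sv-Black Swiss background. The 3 mutant genotypes were hybridised on 2 arrays each, every one against wild-type cells of the same background: a double mutant that has both changes below, PARP-1 null cells without the strand-break sensor poly(ADP-ribose) polymerase 1, and a Wrn mutant with an in-frame deletion in the helicase of Wrn, the gene of Werner syndrome. Cytoplasmic RNA was taken at passage 2, after 10 population doublings, from pools of 3 embryos of a litter, with 2 litters for each genotype. Wild-type RNA carried Cy5 and mutant RNA Cy3 throughout, so dyes were not swapped, and wild type had no array of its own. For the duplicate array of the double mutant, the title and source name the double mutant, while its strain label reads wild type. Parp1 was far below 0 on this array too (values below). Without it the value of each gene in double-mutant cells is that of the first array, which is given first.

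The protein p53 is a transcription factor that is held at a low level by the ubiquitin ligase Mdm2, itself a p53 target, in a feedback loop. DNA damage kinases such as Atm free p53 from Mdm2, and p53 then switches on genes that halt the cell cycle, repair DNA, adjust metabolism or start apoptosis. Embryonic fibroblasts in culture are a classic system for p53, because they meet oxidative damage and pass through p53-dependent arrest as they age.

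The RefSeq promoter windows of 4 of these genes are shown because p53 acts by binding DNA and these windows hold a match to its response element. Of these, Mdm2, Aen and Ccng1 lay below wild type on every array and Tigar far above it in PARP-1 null cells. Eda2r also lay below wild type on every array, and neither its window nor that of Fas holds a match. Windows of Gadd45a, Sesn1 and Trp53 hold matches too and are not shown. Each window runs from 250 bases before to 50 after a gene start in GRCm38.p6, and 9 of the 10 listed genes matched 11 windows, Tnfrsf10b being the other. Capitals mark matches to the p53 response element consensus, whose half-site of 10 bases reads the same on both strands: exact half-sites, and pairs of half-sites at most 13 bases apart with at most 3 mismatches that keep the C and G of each core. Where half-site and pair overlap, the capitals cover both.
Mdm2 (chr10:117710709-117711008, minus strand): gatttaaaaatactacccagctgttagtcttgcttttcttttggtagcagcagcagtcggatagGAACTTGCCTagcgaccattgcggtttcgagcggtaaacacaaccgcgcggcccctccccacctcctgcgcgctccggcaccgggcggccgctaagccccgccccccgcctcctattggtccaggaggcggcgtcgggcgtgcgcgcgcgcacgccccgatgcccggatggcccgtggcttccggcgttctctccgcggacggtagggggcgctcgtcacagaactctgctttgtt
Aen (chr7:78895808-78896107, plus strand): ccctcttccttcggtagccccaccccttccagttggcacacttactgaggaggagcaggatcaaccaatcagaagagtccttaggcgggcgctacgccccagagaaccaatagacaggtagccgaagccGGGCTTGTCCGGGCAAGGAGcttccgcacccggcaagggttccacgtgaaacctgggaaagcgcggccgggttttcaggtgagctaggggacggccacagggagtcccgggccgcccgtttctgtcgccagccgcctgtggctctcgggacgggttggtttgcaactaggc
Ccng1 (chr11:40755237-40755536, minus strand): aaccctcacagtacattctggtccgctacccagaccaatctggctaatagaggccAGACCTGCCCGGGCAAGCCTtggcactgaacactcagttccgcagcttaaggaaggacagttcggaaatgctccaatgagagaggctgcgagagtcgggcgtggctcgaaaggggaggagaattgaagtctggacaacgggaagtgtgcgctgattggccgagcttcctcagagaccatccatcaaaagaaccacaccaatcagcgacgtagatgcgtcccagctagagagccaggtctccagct
Tigar (chr6:127109503-127109802, minus strand): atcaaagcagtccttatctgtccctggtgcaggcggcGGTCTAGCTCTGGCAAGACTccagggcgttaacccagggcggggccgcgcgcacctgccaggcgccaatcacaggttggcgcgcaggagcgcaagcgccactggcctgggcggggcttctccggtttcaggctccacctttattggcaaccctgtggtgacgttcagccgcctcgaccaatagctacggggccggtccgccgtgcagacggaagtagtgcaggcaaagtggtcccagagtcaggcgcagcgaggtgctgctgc
In Ccng1 the pair begins 195 bases before the start and has 1 mismatch with no spacer. The Aen pair begins 121 bases before the start with 3 mismatches, and the window of another annotated Aen start holds the same site. The Tigar pair begins 213 bases before the start, also with 3 mismatches. Mdm2 has 1 exact half-site, 186 bases before the start, and no pair within the limit in this window. Among windows not shown, those of Gadd45a, of a Sesn1 start and of Trp53 each hold an exact half-site and a pair. Those pairs have 2, 2 and 3 mismatches. Of the 11 windows, 7 held an exact half-site and 7 a pair, against 8.36% and 15.6% of all 32851 windows, the shared Aen site counting 2 times. Windows of the other pathway genes held them at 10.9% and 19.8%. The genes were chosen for a known p53 link, and why their shares differ from those of the other pathway genes was not tested. A match of letters is not evidence of binding, and p53 sites are also known in introns, which these windows leave out.

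Values are log2 ratios read as mutant over wild type, so -1 is 0.5 times the wild-type level. That direction is likely and not certain: it rests on Parp1, at -2.97 and -2.59 in double-mutant cells, -2.61 and -2.30 in PARP-1 null cells and -0.12 and -0.31 in Wrn mutant cells, which is far below 0 where PARP-1 is missing. The usual Cy5 over Cy3 would, with the stated dyes, give wild type over mutant, and a turned sign would mirror every direction below. The Wrn spot was at 0.25 and 0.71 in double-mutant cells, 0.045 and -0.29 in PARP-1 null cells and 0.84 and 0.58 in Wrn mutant cells, and whether it lies inside the deletion is not known. Each array gave 22393 ratios with a median of 0, between 16.9% and 23.7% of them exactly 0. No signal intensity was used here, so the signal behind a ratio and the level of a gene are unknown. The precision is limited by the number of arrays. All 3 genotypes were compared with wild-type RNA under 1 dye assignment. A value that the genotypes share thus cannot be told apart from a dye bias of its spot or from the wild-type pools.

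Mdm2, which encodes the ligase that marks p53 for destruction, was below wild type on all 6 arrays. Its log2 ratio was -2.35 and -1.50 in double-mutant cells, -1.43 and -0.98 in PARP-1 null cells and -0.91 and -1.58 in Wrn mutant cells. Only 1.84% to 6.42% of named genes lay lower on any 1 array, so Mdm2 was near the bottom of each. The means were -1.92 ± 0.60 in double-mutant cells (SD, n = 2), -1.20 ± 0.32 in PARP-1 null cells and -1.24 ± 0.48 in Wrn mutant cells, or 0.264, 0.434 and 0.422 times wild type. Both double-mutant arrays lay below both PARP-1 null arrays, with a mean difference of -0.72, but the nearest arrays stood at -1.50 and -1.43. Arrays differed in spread, with an SD over named genes from 0.56 to 0.93. Scaled to a common spread, the means were -1.59 in double-mutant and -1.27 in PARP-1 null cells. Unscaled, the double-mutant and Wrn mutant arrays overlapped, as did those of the PARP-1 null and the Wrn mutant. In bulk RNA, fewer cells that express a gene and less RNA per cell cannot be told apart.

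Ccng1, which encodes cyclin G1, a p53 target that acts with the phosphatase PP2A on Mdm2, was also below wild type on every array, by less. It stood at -0.82 and -0.13 in double-mutant cells, -0.61 and -0.21 in PARP-1 null cells and -0.47 and -0.80 in Wrn mutant cells. The genotypes overlapped throughout, with means of -0.47 ± 0.49, -0.41 ± 0.28 and -0.64 ± 0.23 in the same order (SD, n = 2 each).

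Gadd45a, which encodes a stress protein of growth arrest and repair, lay on different sides of wild type by genotype. It was -1.20 and -0.58 in double-mutant cells, against 0.36 and 0.46 in PARP-1 null cells and 0.65 and 0.59 in Wrn mutant cells. Both double-mutant arrays were below wild type, and all 4 arrays of the single mutants were above it. The means were -0.89 ± 0.44 in double-mutant cells, 0.41 ± 0.073 in PARP-1 null cells and 0.62 ± 0.043 in Wrn mutant cells (SD, n = 2). The double mutant differed by -1.30 from the PARP-1 null and by -1.52 from the Wrn mutant, more than the SD of any genotype. The PARP-1 null arrays lay below the Wrn mutant arrays, with a smaller gap of -0.22. The single mutants' log2 ratios add up to 1.03, and the double mutant differed from that sum by -1.93.

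Tigar, which encodes a fructose bisphosphatase that lowers glycolysis and feeds the pentose phosphate pathway, had the highest values of the 9 genes. It was 0.81 and 0.54 in double-mutant cells, 2.62 and 2.38 in PARP-1 null cells and -0.30 and 0.20 in Wrn mutant cells. No 2 genotypes overlapped: the PARP-1 null was highest, the double mutant between, and the Wrn mutant on both sides of 0. The mean of 2.50 ± 0.17 in PARP-1 null cells (SD, n = 2) is 5.66 times wild type, against 0.68 ± 0.19 or 1.60 times in double-mutant cells and -0.052 ± 0.35 in Wrn mutant cells. On the 2 PARP-1 null arrays 99.7% and 97.8% of named genes lay lower. The double mutant differed by -1.82 from the PARP-1 null, by 0.73 from the Wrn mutant and by -1.77 from the sum of the single mutants.

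Sesn1 encodes sestrin 1, an inhibitor of growth signalling through mTORC1, and its 2 spots disagreed. Spot 3288 was at -1.54 and -0.92 in double-mutant cells, 0 and -1.41 in PARP-1 null cells and -0.63 and -0.73 in Wrn mutant cells. Spot 16114 was above wild type on all 6 arrays, at 0.74 and 0.84 in double-mutant cells, 0.80 and 0.97 in PARP-1 null cells and 0.41 and 0.91 in Wrn mutant cells. The 0 of spot 3288 is an exact 0, and whether that is a measured ratio or a filler is not stated. The median gap between the spots was 1.70, and of 1193 genes with several spots only 62 had a larger one, the median gene having 0.51. Averaged, Sesn1 was -0.22 ± 0.25, 0.089 ± 0.44 and -0.0098 ± 0.14 in double-mutant, PARP-1 null and Wrn mutant cells (SD, n = 2), a mean that describes neither spot, so no direction is given for this gene.

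**Figure D1:**
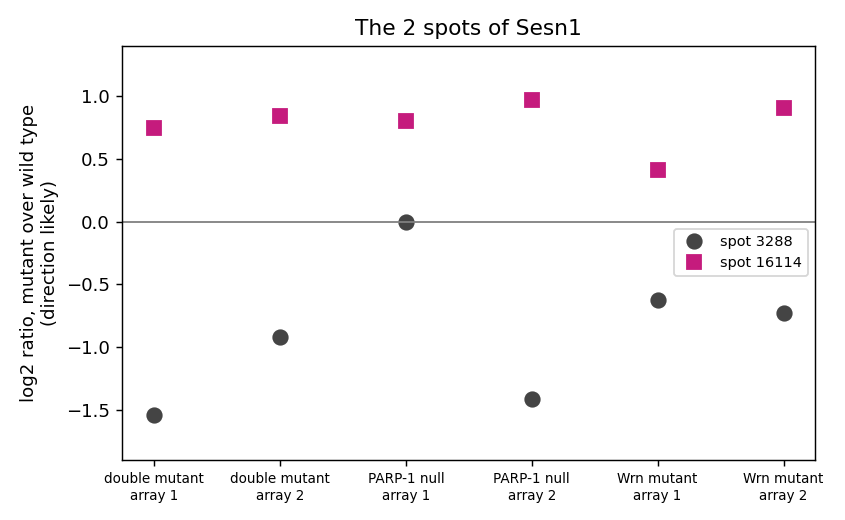
Log2 ratio (vertical axis, mutant over wild type, likely direction) of the 2 spots named Sesn1 on each of the 6 arrays (horizontal axis). Spot 16114 (squares) lies between 0.41 and 0.97, and spot 3288 (circles) between -1.54 and 0.

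Aen, which encodes an apoptosis-enhancing nuclease induced by p53, had nearly the same low value in all genotypes. It was -1.37 and -1.84 in double-mutant cells, -1.76 and -1.47 in PARP-1 null cells and -1.49 and -1.82 in Wrn mutant cells. The means, -1.60 ± 0.33, -1.61 ± 0.21 and -1.65 ± 0.23 (SD, n = 2), lay within 0.049 of one another, less than any SD. They equal 0.329, 0.327 and 0.318 times wild type in double-mutant, PARP-1 null and Wrn mutant cells. If both single changes had added, the double mutant would stand at -3.26, and it was 1.66 above that sum. A dye bias or wild-type pool that the genotypes share enters such a sum more than once.

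The receptors lay on both sides of wild type. Fas, the death receptor for Fas ligand, was above wild type on all 6 arrays, at 1.12 and 1.27 in double-mutant cells, 0.68 and 0.74 in PARP-1 null cells and 0.36 and 0.75 in Wrn mutant cells. The double mutant was highest, at 1.19 ± 0.11 (SD, n = 2) or 2.29 times wild type, without overlap with the PARP-1 null (0.71 ± 0.044) or the Wrn mutant (0.55 ± 0.27), which overlapped each other. It exceeded them by 0.48 and 0.64, and differed from the sum of the single mutants by -0.069.

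Tnfrsf10b, the mouse death receptor for TRAIL, lay slightly below wild type on every array. It was -0.13 and -0.23 in double-mutant cells, -0.11 and -0.18 in PARP-1 null cells and -0.37 and -0.34 in Wrn mutant cells. The Wrn mutant arrays were below all others, but its mean of -0.36 ± 0.023 (SD, n = 2) is only 0.780 times wild type, against 0.880 in double-mutant cells and 0.905 in PARP-1 null cells.

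Eda2r, the receptor for ectodysplasin A2 and a p53 target on the X chromosome, was below wild type on all 6 arrays and lowest in PARP-1 null cells. It was -0.94 and -1.45 in double-mutant cells, -1.77 and -1.85 in PARP-1 null cells and -0.15 and -0.96 in Wrn mutant cells. The PARP-1 null, at -1.81 ± 0.059 (SD, n = 2) or 0.286 times wild type, did not overlap with the double mutant, at -1.19 ± 0.36, or with the Wrn mutant, at -0.56 ± 0.57. The Wrn mutant and the double mutant overlapped.

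**Figure D2:**
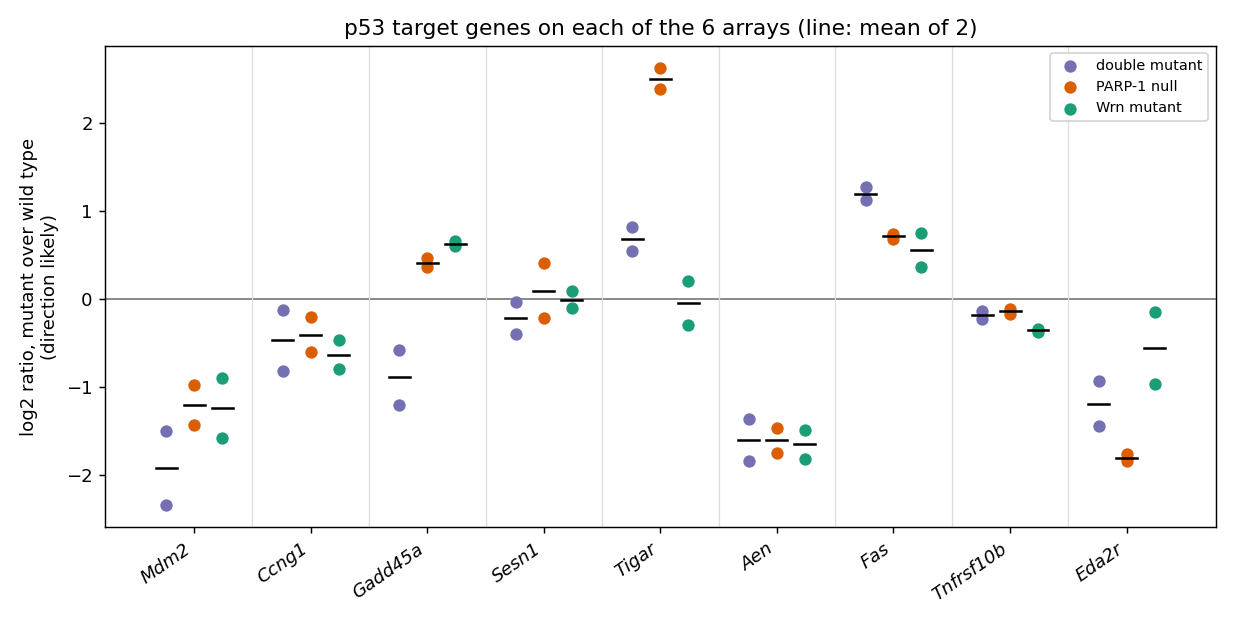
Log2 ratio (vertical axis, mutant over wild type, likely direction) of the 9 measured p53 target genes (horizontal axis), with 1 point per array and a line at the mean of the 2 arrays of a genotype. Mdm2, Ccng1, Aen, Tnfrsf10b and Eda2r lie below 0 on all arrays, Fas above 0, Gadd45a below 0 in double-mutant cells only, and Tigar reaches 2.62 in PARP-1 null cells.

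Across the arrays, 7 and 7 of the 9 genes were below 0 in double-mutant cells and 5 and 6 in PARP-1 null cells. In Wrn mutant cells 7 and 5 were. The averaged Sesn1, whose spots disagreed, is among the genes counted. Of all named genes, between 37.3% and 45.2% were below 0 and between 40.0% and 46.7% above, the rest being exactly 0. In the fit over all features (limma, Benjamini-Hochberg adjusted p under 0.05), 1 of the 9 was called higher and 3 lower in double-mutant cells, where 18.3% of features were called. The count was 1 higher and 2 lower in PARP-1 null cells, beside 7.95% of features, and 0 higher and 2 lower in Wrn mutant cells, beside 3.36%. Between genotypes 0 of the 9 were called: double mutant against Wrn mutant beside 0% of features, double mutant against PARP-1 null beside 0%, and PARP-1 null against Wrn mutant beside 0.00484%. At an unadjusted p under 0.05 (limma) the counts were 4, 3 and 3 of 9, beside 14.0%, 6.83% and 8.36% of all features. Since the genes were selected on these ratios, nothing is read from the counts.

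By Euclidean distance over the 6 log2 ratios, the named genes nearest to Mdm2 were Pgam2 (0.233), Arel1 (0.292), Olfr1393 (0.354), Dynlt3 (0.369) and Tnfaip1 (0.371). Within the pathway lists the nearest were Foxm1 (0.956), Sesn2 (0.978) and Bbc3 (0.995), at ranks 189, 204 and 224 among all other named genes. Of the 9 genes, Aen came nearest at 1.35 and rank 468, and Tigar was farthest at 6.74 and rank 15972.

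The other p53 pathway genes came from 6 lists by role with 107 genes, of which 94 were measured. In the double mutant 12 of the 94 rose and 13 fell, or 26.6%, beside 18.3% of all features, and the median of the 94 was 0, as for all features. In the PARP-1 null 1 rose and 5 fell, or 6.38%, beside 7.95% of all features. In the Wrn mutant 0 passed limma, with 25 at an unadjusted p under 0.05, or 26.6%, beside 23.6% of all features. The counts rest on few arrays. Without its first array the double mutant had 1 call, without its second, the one with the strain label of wild type, 2, without either PARP-1 null array 7 and without either Wrn mutant array 12; the PARP-1 null had 3 and 0 calls without its first and second array, and the Wrn mutant 2 without its first. Of the 31 calls, 0 passed in all 6 fits that each left out 1 array and 15 in none of them, and fitted on the compared arrays alone there were 0 calls.

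Most regulators of p53 did not pass the test. Mdm4, the partner of Mdm2, was -0.026 ± 0.014 in double-mutant cells, -0.037 ± 0.11 in PARP-1 null cells and -0.069 ± 0.060 in Wrn mutant cells (SD, n = 2), close to wild type beside the low Mdm2. Atm, the kinase that signals double-strand breaks to p53, fell in both genotypes without PARP-1. It was -0.64 and -0.61 in double-mutant cells and -0.84 and -0.78 in PARP-1 null cells, against -0.092 and -0.12 in Wrn mutant cells (adjusted p of the first 2 genotypes 0.0104 each, limma, Benjamini-Hochberg). Chek2, a kinase downstream of Atm, fell in double-mutant cells at -1.37 ± 0.33 (adjusted p = 0.0374, limma), and so did Trp53bp2, a cofactor for apoptosis targets, at -1.08 ± 0.27 (adjusted p = 0.0324, limma). Both genes were below wild type on all 6 arrays. Chek2 was -0.68 ± 0.51 in PARP-1 null and -0.64 ± 0.056 in Wrn mutant cells, and Trp53bp2 -0.69 ± 0.035 and -0.49 ± 0.34, without passing. Other damage kinase genes did not pass in double-mutant cells: Atr was at 0.082 ± 0.24 (adjusted p = 0.678, limma), Chek1 at -0.15 ± 0.22 (adjusted p = 0.744, limma) and Prkdc at -0.48 ± 0.091 (adjusted p = 0.124, limma). These 3 were added after their values were seen.

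Cdkn2a, whose product Arf restrains Mdm2 and whose other product p16 blocks the cell cycle, fell in double-mutant cells. It was -2.40 and -2.01 there (adjusted p = 0.0229, limma), -1.95 and -1.04 in PARP-1 null cells (adjusted p = 0.0598, limma) and -1.84 and -1.78 in Wrn mutant cells (adjusted p = 0.0635, limma). Ppm1d, a phosphatase and p53 target that turns the response off, did not pass, at -0.20 ± 0.14, -0.49 ± 0.47 and -0.18 ± 0.26 in double-mutant, PARP-1 null and Wrn mutant cells (SD, n = 2). Of the 22 measured regulators, 2 rose and 4 fell in double-mutant cells (27.3%, beside 18.3% of all features). The counts were 0 and 1 in PARP-1 null cells (4.55%, beside 7.95%) and 0 and 0 in Wrn mutant cells. Those that rose were Daxx at 0.60 ± 0.18 (adjusted p = 0.0381, limma) and Topors at 0.40 ± 0.14 (adjusted p = 0.0343, limma). Both were outside the naming rule and lay above wild type on all 6 arrays.

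Of 12 targets of cell-cycle arrest, 1 rose and 1 fell in double-mutant cells (16.7%, beside 18.3% of all features). The counts were 1 and 1 in PARP-1 null cells (16.7%, beside 7.95%) and 0 and 0 in Wrn mutant cells. Cdkn1a, which encodes the cyclin-kinase inhibitor p21 and is the best known p53 target, did not pass. It was 0.065 and 0.99 in double-mutant cells, 0.35 and 0.36 in PARP-1 null cells and 0.22 and 0.27 in Wrn mutant cells, above wild type on all 6 arrays. Its spot thus lay on the other side of wild type from Mdm2 and Aen. Ptprv, a receptor-type phosphatase gene that p53 induces in mouse cells, rose, to 5.13 and 3.79 in double-mutant cells (adjusted p = 0.0166, limma) and 4.48 and 4.02 in PARP-1 null cells (adjusted p = 0.0240, limma). In the Wrn mutant it was 0.077 and 0.70. Sfn, which encodes 14-3-3 sigma, fell in PARP-1 null cells at -1.10 ± 0.21 (adjusted p = 0.0460, limma), and the cytoskeletal gene Ckap2 fell in double-mutant cells at -0.99 ± 0.35 (adjusted p = 0.0335, limma). Sfn was also low in double-mutant cells, at -0.83 and -0.70, without passing (adjusted p = 0.0548, limma). It was 0.047 and -0.46 in Wrn mutant cells. Ckap2 was below wild type on all 6 arrays, with means of -0.58 in PARP-1 null and -0.98 in Wrn mutant cells.

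Of 16 measured targets of apoptosis, 1 rose and 4 fell in double-mutant cells (31.2%, beside 18.3% of all features). The counts were 0 and 2 in PARP-1 null cells (12.5%, beside 7.95%) and 0 and 0 in Wrn mutant cells. Bbc3, the gene of the BH3-only killer Puma, fell in both genotypes without PARP-1. It was -1.81 and -1.85 in double-mutant cells (adjusted p = 0.0134, limma) and -1.44 and -1.04 in PARP-1 null cells (adjusted p = 0.0339, limma), against -0.54 and -0.92 in Wrn mutant cells. Pmaip1, the gene of the BH3-only protein Noxa, did likewise, at -1.01 and -1.19 in double-mutant cells (adjusted p = 0.0105, limma) and -1.25 and -1.31 in PARP-1 null cells (adjusted p = 0.0104, limma). In the Wrn mutant it was -0.12 and -0.23, close to wild type. Dram1, a lysosomal gene of autophagy, rose in double-mutant cells by 1.25 ± 0.054 (adjusted p = 0.0365, limma), and the repressor gene Bcl6 fell, at -0.98 ± 0.013 (adjusted p = 0.0264, limma). Dram1 was above wild type on all 6 arrays, with means of 0.93 in PARP-1 null and 0.37 in Wrn mutant cells. Bcl6 was below it on all 6, with means of -0.45 and -0.29. Bax was not analysed here.

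Of 17 measured targets of repair and metabolism, 1 rose and 1 fell in double-mutant cells (11.8%, beside 18.3% of all features). The counts were 0 and 1 in PARP-1 null cells (5.88%, beside 7.95%) and 0 and 0 in Wrn mutant cells. Lpin1, a phosphatidate phosphatase gene, fell to -1.08 and -1.05 in double-mutant cells (adjusted p = 0.0104, limma) and -0.58 and -0.66 in PARP-1 null cells (adjusted p = 0.0105, limma). In the Wrn mutant it stood at 0.17 and 0.14. Aldh4a1, a mitochondrial gene of proline breakdown, rose in double-mutant cells by 0.57 ± 0.20 (adjusted p = 0.0304, limma). It was above wild type on all 6 arrays, with means of 0.079 in PARP-1 null and 0.13 in Wrn mutant cells. Sesn2, the relative of Sesn1, did not pass, at -2.64 and -1.80 in double-mutant cells, -1.97 and -0.31 in PARP-1 null cells and -0.71 and -1.71 in Wrn mutant cells. Of 10 measured targets that are secreted or at the surface, 2 fell in the double mutant (20.0%, beside 18.3% of all features): the TNF receptor gene Tnfrsf1a at -1.55 ± 0.45 (adjusted p = 0.0355, limma) and Igfbp3, a carrier of insulin-like growth factors, at -1.33 ± 0.31 (adjusted p = 0.0212, limma). Igfbp3 was -0.48 and -0.71 in PARP-1 null cells and 0.92 and 0.69 in Wrn mutant cells, where it did not pass (adjusted p = 0.105 and 0.0856, limma). Tnfrsf1a was below wild type on all 6 arrays, with means of -0.91 in PARP-1 null and -0.71 in Wrn mutant cells.

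**Figure D3:**
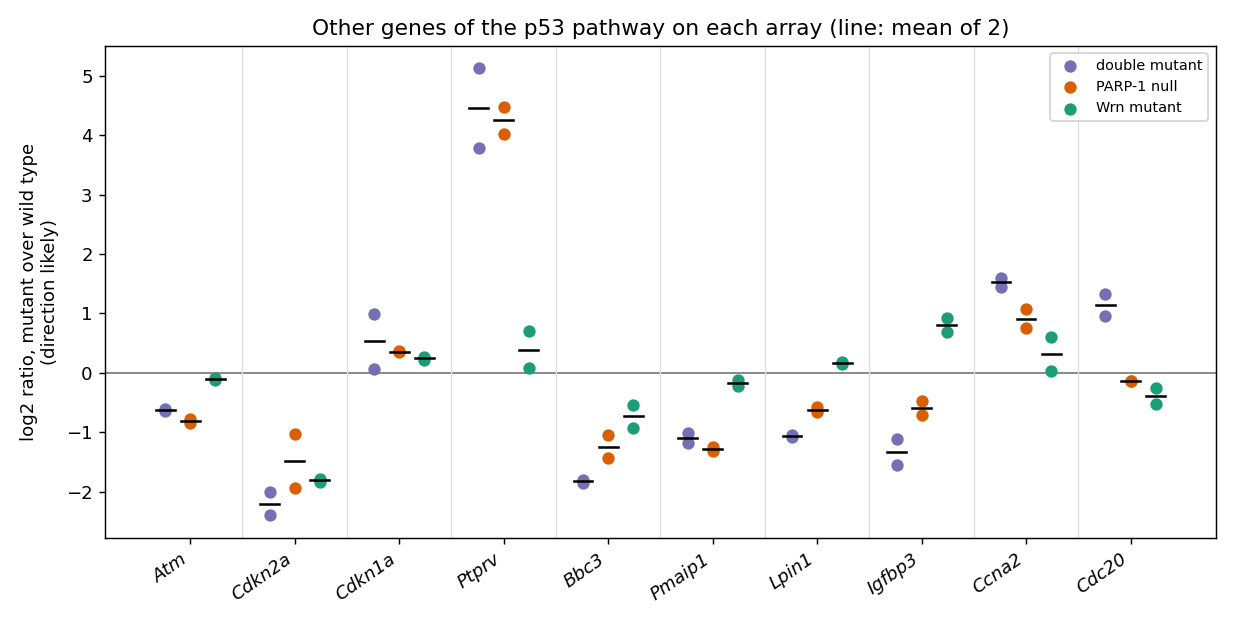
Log2 ratio (vertical axis, mutant over wild type, likely direction) of 10 other genes of the p53 pathway (horizontal axis), 1 point per array with a line at the mean of 2. Ptprv reaches 5.13, and Cdkn1a lies above 0 on every array. Atm, Cdkn2a, Bbc3 and Pmaip1 lie below 0 on every array. Atm, Bbc3, Pmaip1, Lpin1 and Igfbp3 lie lower in both genotypes without PARP-1 than in the Wrn mutant.

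Genes that p53 represses through p21 and the DREAM complex, which holds cell-cycle promoters silent, gave 18 measured genes. In the double mutant 7 rose and 1 fell, or 44.4%, beside 18.3% of all features, with a list median of 0.80 against 0 for all. Ccna2, the gene of cyclin A2, rose by 1.52 ± 0.099 (adjusted p = 0.0220, limma), the anaphase activator Cdc20 by 1.14 ± 0.26 (adjusted p = 0.0203, limma) and the cyclin gene Ccnb2 by 1.13 ± 0.16 (adjusted p = 0.0111, limma). Foxm1, a driver of mitotic genes, was the 1 that fell, at -2.04 ± 0.32 (adjusted p = 0.0355, limma), and it stood at -1.62 in PARP-1 null cells and -1.64 in Wrn mutant cells without passing. Ccna2 was above wild type on all 6 arrays, with means of 0.91 in PARP-1 null and 0.32 in Wrn mutant cells. In the same order Cdc20 was -0.14 and -0.39, and Ccnb2 0.42 and -0.16. None of the 18 passed limma in PARP-1 null cells (median -0.0024) or the Wrn mutant (median -0.30), where 5 and 7 had an unadjusted p under 0.05 (27.8% beside 27.6% of all features, and 38.9% beside 23.6%). By array the list median was 0.82 and 0.63 in double-mutant cells, -0.078 and 0.062 in PARP-1 null cells and -0.48 and -0.21 in Wrn mutant cells. Whether the cell-cycle genes bear on the low Gadd45a of double-mutant cells was not tested.

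In Wrn mutant cells, where no pathway gene passed limma, the genes picked were the 2 of each list with the largest log2 ratio on the weaker of their 2 arrays. Of these 12 genes, 9 were below wild type and 3 above. Below it, after Cdkn2a, were Foxm1 and Sesn2 (above), Ckap2 at -0.98 ± 0.0065 (SD, n = 2), Cdk1, the mitotic kinase gene, at -0.94 ± 0.18, Ppp1r13b at -0.86 ± 0.26, Siva1, a gene of death-receptor signalling, at -0.77 ± 0.052, Tnfrsf1a at -0.71 ± 0.11 and Dgka at -0.49 ± 0.14. Above it were Steap3, a metalloreductase gene of iron uptake, at 1.37 ± 0.88, Igfbp3 at 0.81 ± 0.16 and the arrest gene Rprm at 0.67 ± 0.13. The adjusted p of the 12 ran from 0.0635 for Cdkn2a to 0.351 for Dgka (limma, Benjamini-Hochberg). An order by adjusted p would also place Brca1, at -0.50 (adjusted p = 0.0671, limma), and Bbc3 (adjusted p = 0.0981, limma) ahead of several of them.

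**Figure D4:**
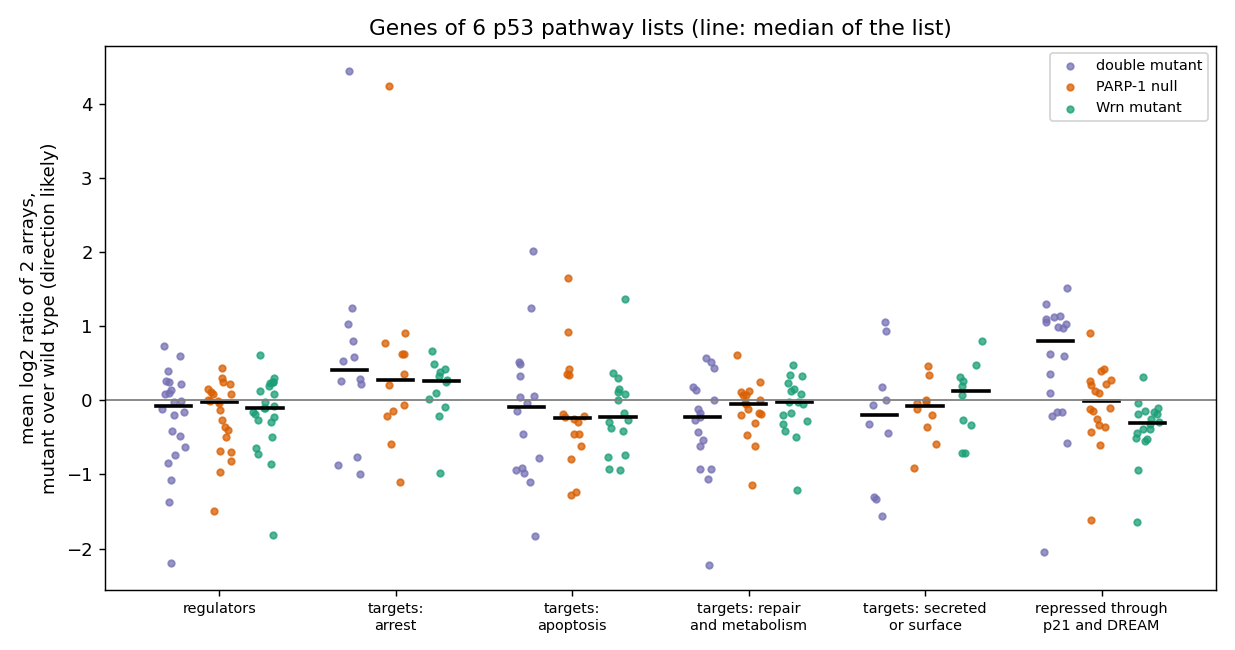
Mean log2 ratio of 2 arrays (vertical axis, mutant over wild type, likely direction) of each gene in the 6 p53 pathway lists (horizontal axis), 1 point per gene with a line at the list median. The medians lie between -0.30 and 0.41, apart from 0.80 in double-mutant cells for genes repressed through p21 and DREAM.

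A dye bias that is constant for a spot cancels between genotypes, and 0 of the 94 genes passed limma in any of the 3 differences. At an unadjusted p under 0.05 there were 30 for the double mutant against the Wrn mutant, or 31.9% beside 14.0% of all features. For the double mutant against the PARP-1 null there were 15, or 16.0% beside 6.83%, and for the PARP-1 null against the Wrn mutant 9, or 9.57% beside 8.36%. Lpin1 differed by -1.23 between the double mutant and the Wrn mutant (adjusted p = 0.103, limma) and by -0.78 between the PARP-1 null and the Wrn mutant (adjusted p = 0.0990, limma). Atm differed by -0.52 and -0.71 in those comparisons (adjusted p = 0.105 and 0.0990, limma), and Ptprv by 4.07 and 3.86 (adjusted p = 0.155 and 0.270, limma). Of the list repressed through p21 and DREAM, 17 of 18 genes had a higher mean in double-mutant than in Wrn mutant cells, beside 10088 of 20679 features. The median gap was 1.04 against 0 for all features. In double-mutant against PARP-1 null cells 17 of 18 were higher, beside 9578 features, with a median gap of 0.66 against 0. In PARP-1 null against Wrn mutant cells 17 of 18 were higher as well, beside 10477 features. The median gap there was 0.30 against 0.0070. At an unadjusted p under 0.05 (limma) there were 13, 8 and 1 of the 18 in these comparisons, in this order. Those are 72.2%, 44.4% and 5.56%, beside 14.0%, 6.83% and 8.36% of all features.

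Markers of other cell types moved with the genotypes in places, and their part in the values above was not tested. Ratios give no level, so whether a marker is absent could not be read. All 11 fibroblast markers were measured, with array medians of 0.45 and 0.79 in double-mutant cells, 0.74 and 0.84 in PARP-1 null cells and 0.057 and 1.02 in Wrn mutant cells. Medians of 12 macrophage and leukocyte markers were -0.067 and -0.29, -0.41 and -0.23, and 1.53 and 0.32 in that order of genotypes. Medians of 5 mesothelial markers were 1.69 and 2.68, 2.97 and 2.34, and 2.04 and -0.52, and of 3 neural crest and glial markers 2.05 and 1.56, 1.08 and 1.18, and 0.42 and -0.040. The highest neural crest medians, from 3 of 5 listed markers, and the highest Fas values were both in double-mutant cells. So were the highest medians of the list repressed through p21 and DREAM, and a link between any of these was not tested. Medians of endothelial, epithelial and skeletal muscle markers stayed between -0.49 and 0.22 on all arrays.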

How the data were processed

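Gene expression was measured on 6 two-colour Agilent oligonucleotide arrays, 2 for each of 3 mutant genotypes, each against wild type. The authors deposited 1 log ratio per spot, read here as log10 because the largest size on every array is exactly 2; log base, centring, background correction, filters and direction are not stated in the labels or the file. Of 22393 spots, 18218 had 1 gene symbol in the platform annotation, 16 several and 4159 none. Ratios were multiplied by 3.32 (log2 of 10) and spots of a gene averaged, which gave 16504 named genes and 20679 features with the other spots. The tests used limma 3.58.1 (R 4.3.3, with the package data.table, version 1.17.8), fitting every array together with 1 term for each genotype (3 residual degrees of freedom plus 0.66 from the prior), adjusted by Benjamini-Hochberg over all features at a threshold of 0.05. Spread among wild-type cells enters the tests against wild type only as far as the pools on the arrays differed, which is unknown. The p-values cover array-to-array spread, some of which may be technical.

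The genes and lists were chosen with earlier results of these data known. Besides the 9 genes, named genes were Cdkn1a, Bbc3, Pmaip1, Mdm4, Ppm1d, Cdkn2a, Parp1 and Wrn, up to 4 largest changes per list and comparison among those that passed with 1 sign on both arrays, or the 2 clearest where none passed, and the genes nearest to Mdm2. Zero spots as missing, spot medians, scaling, an array block, smaller fits, robust moderation and left-out arrays were tried. Promoters were searched and plots drawn in Python 3.11.15 with matplotlib 3.10.9, pandas 2.3.3 and numpy 2.4.6.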

Additional observations from a re-analysis of the deposited data

Results flagged for a closer look

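Some genes stood on opposite sides of wild type on every array of 2 genotypes. Gadd45a was -0.89 in double-mutant cells against 0.62 in Wrn mutant cells, a difference of -1.52, and against 0.41 in PARP-1 null cells, a difference of -1.30. Both are descriptions, since Gadd45a was selected on these ratios, and no test is given for it.

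Of the pathway genes that the naming rule picked, the following did the same, and none of their differences passed limma with Benjamini-Hochberg adjustment (adjusted p from 0.0990 to 0.794). Trp53inp1 differed by -1.14 between the double mutant and the Wrn mutant and by -0.48 between the PARP-1 null and the Wrn mutant. Gtse1 differed by 0.73 between the double mutant and the PARP-1 null. Trp53i11 differed by -0.35 between the PARP-1 null and the Wrn mutant, and Xpc by -0.55. Lpin1 differed from the Wrn mutant by -1.23 in double-mutant cells and by -0.78 in PARP-1 null cells. Ccng2 in double-mutant cells differed by -0.65 from the Wrn mutant and by -0.53 from the PARP-1 null. Igfbp3 differed from the Wrn mutant by -2.14 in double-mutant cells and by -1.40 in PARP-1 null cells. Tlr3 differed by -1.38 between the double mutant and the Wrn mutant. Cdc20 in double-mutant cells differed by 1.52 from the Wrn mutant and by 1.27 from the PARP-1 null. Ccnb2 differed from the Wrn mutant by 1.29 in double-mutant cells and by 0.58 in PARP-1 null cells. Birc5 differed by 1.58 between the double mutant and the Wrn mutant. Pathway genes outside the naming rule also lay on opposite sides in that comparison, among them Cdc25c at 1.11, Mki67 at 1.06, Top2a at 0.88, Plk1 at 0.79 and Dapk1 at -0.61, none of which passed limma either.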

How the results depend on the processing

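Counts of the 94 pathway genes called by limma moved with the processing. With exact zeros missing they were 39 in double-mutant cells, 14 in PARP-1 null cells and 3 in Wrn mutant cells, and 1 for the double mutant against the Wrn mutant, with 15982 features tested. Scaling the arrays to a common spread gave 11 in double-mutant cells and 1 in Wrn mutant cells. With the array number as a replicate block there were 11 in double-mutant cells and 0 in PARP-1 null cells, though the numbers do not pair the arrays (correlations of deviations -0.11, -0.17 and 0.17), and fitted on the compared arrays alone 0 in both. With 1 array left out, the count ran from 1 to 12 in double-mutant cells, 0 to 4 in PARP-1 null cells and 0 to 2 in Wrn mutant cells, and from 0 to 1 for the double mutant and for the PARP-1 null, each against the Wrn mutant, the 1 coming without the first Wrn mutant array and the first PARP-1 null array. An arm left with 1 array was assumed to vary like the others. The causes were not tested. Over all features the calls were 3794 in double-mutant cells, 1645 in PARP-1 null cells and 694 in Wrn mutant cells, and 5576, 2922 and 1588 with exact zeros missing, 1180, 1667 and 1349 after scaling, 1622, 0 and 0 with the replicate block, and 0 each on the compared arrays alone. Spot medians, named features only and robust moderation kept the counts among the 94 genes in each mutant against wild type within 1.5 times, but with named features only the calls over all features were 3241, 1006 and 128. Of the values of the 9 genes, 5 moved by over 1 SD under scaling, none of them changing sign. Leaving out 1 of 2 arrays gives the value of the other, and 3 values changed sign when the first array of a genotype was left out: Sesn1 in Wrn mutant cells (0.090) and in PARP-1 null cells (-0.22), and Tigar in Wrn mutant cells (0.20). The signal over background behind each ratio is unknown.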
